A study of Mus musculus with 12 samples.

Results

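*Esr1*, which encodes estrogen receptor alpha, and *Pgr*, which encodes the progesterone receptor, were examined in hernia-associated fibroblasts (HAFs) treated with or without estradiol (E2) and fulvestrant. They were chosen by name and are 2 of the 13233 genes in the deposited expression table. All 12 samples were primary fibroblasts from the lower abdominal muscle (LAM) of Aromhum mice, which carry the human aromatase gene, an enzyme that turns testosterone into E2. Cultures were treated for 48 hours in 4 groups of 3 samples. The vehicle group received the solvents, ethanol and DMSO, and the E2 group received 10 nM E2. Another set was given both E2 at 10 nM and fulvestrant at 100 nM, and the last was given fulvestrant at 100 nM without E2. Before treatment every culture had been passaged once and starved in serum-free medium without phenol red, and a low concentration of charcoal-stripped serum was present during treatment. There was no group from mice without the aromatase transgene. The labels do not say whether replicates 1, 2 and 3 came from separate mice or isolations, so the p-values measure only the spread between these samples.

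Estrogen receptor alpha is a nuclear receptor that binds DNA once E2 occupies it, directly at estrogen response elements or through partners such as AP-1 and SP1. *Pgr* is a classical target of the E2-bound receptor in the uterus, mammary gland and pituitary, so the progesterone receptor is often read as a sign of active estrogen signaling. Fulvestrant is a steroidal antiestrogen known to lower the amount of this receptor in cells. It acts on the protein, whereas the measurements here are of RNA.

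*Esr1* (ENSMUSG00000019768) is a protein-coding gene on the plus strand of chromosome 10 (GRCm38, chr10:4611593-5005614) with 10 annotated transcripts and 13661 bases of merged exon. *Pgr* (ENSMUSG00000031870) is a protein-coding gene on the plus strand of chromosome 9 (chr9:8899833-8968611) with 4 annotated transcripts and 8546 bases of merged exon. No exonic base of either gene is shared with another annotated gene on either strand, so their reads can be assigned without a neighbor. The promoter sequences of both genes are shown because their transcripts moved together across the treatments. Each runs from 250 bases before to 50 bases after a RefSeq transcription start on GRCm38.p6, plus strand, and capitals mark the motif letters found. The *Pgr* window is chr9:8899583-8899882 and the *Esr1* window is chr10:4611739-4612038. RefSeq gives a second *Esr1* start, with the window chr10:4709908-4710207, which is not printed because it held none of the motifs searched. The *Pgr* start is the first base of the GENCODE gene, whereas the *Esr1* start of the printed window lies inside the GENCODE gene, whose first base is upstream of it.
Pgr promoter: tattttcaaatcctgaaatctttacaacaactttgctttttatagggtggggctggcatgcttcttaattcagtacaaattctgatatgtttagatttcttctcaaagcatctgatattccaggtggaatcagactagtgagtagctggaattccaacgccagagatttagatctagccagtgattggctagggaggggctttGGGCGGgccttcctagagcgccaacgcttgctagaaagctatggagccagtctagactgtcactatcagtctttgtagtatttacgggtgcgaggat
Esr1 promoter: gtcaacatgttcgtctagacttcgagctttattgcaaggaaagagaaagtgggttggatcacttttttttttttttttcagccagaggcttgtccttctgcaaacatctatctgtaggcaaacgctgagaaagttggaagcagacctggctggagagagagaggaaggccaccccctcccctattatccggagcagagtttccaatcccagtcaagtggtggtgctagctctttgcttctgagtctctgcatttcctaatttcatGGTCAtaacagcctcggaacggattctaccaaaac

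Both strands were searched for the estrogen response element GGTCANNNTGACC, its half-site GGTCA, which lies within the full element, the AP-1 site TGANTCA and the GC box GGGCGG. The *Pgr* window held 1 GC box, 47 bases upstream of the start. GC boxes, the sites that SP1 binds, were present in 35.7% of 32851 RefSeq promoter windows of the same length. The printed *Esr1* window held 1 half-site, 15 bases downstream of the start, and the window of the second *Esr1* start held 0. Half-sites were present in 40.5% of the windows. None of the 3 windows contained the full element, which 0.0700% of windows held, or the AP-1 site, which 7.81% held.

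Sequencing depth was 18827792 to 44040507 reads per sample on the listed genes, with a median of 31703872. The table lists only genes with at least 10 reads in every sample. The cell type on the labels was checked against fibroblast markers, and 9 of 9 were listed, including *Pdgfra*, *Col1a1*, *Dcn* and *Thy1*. Of the other markers, 0 of 8 myogenic, 0 of 5 adipocyte and 0 of 4 epithelial genes were listed. The same held for 1 of 5 endothelial genes (*Tek*, without *Pecam1* or *Cdh5*), 2 of 5 leukocyte genes (*Cd68* and *Lyz2*, without *Ptprc*), 3 of 5 mural genes and 2 of 4 Schwann cell genes. The summed fibroblast markers moved with treatment, at 487098 to 551835 normalized counts in vehicle, 560419 to 622643 in E2, 422436 to 442203 in E2 plus fulvestrant and 391439 to 459387 in fulvestrant. The summed Schwann cell markers ran from 181 to 223 in vehicle, 159 to 214 in E2, 114 to 150 in E2 plus fulvestrant and 112 to 171 in fulvestrant. The part of either marker sum in the receptor results was not tested. The endothelial, leukocyte and mural sums overlapped among all 4 groups, at 58.4 to 277, 90.7 to 389 and 1940 to 4439 normalized counts. Fewer cells that carry a transcript and less of it per cell cannot be told apart in bulk RNA.

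The replicate-1 libraries stood apart from replicates 2 and 3 in all treatments. With group as a term, 52.7% of the 13233 genes differed between replicate 1 and the other two numbers (limma adjusted p under 0.05 and fold change above 1.2). *Esr1* was among them, 1.01 higher on the log2 scale in replicate 1 (SE 0.15, limma adjusted p = 6.01e-05). *Pgr* differed in the opposite direction by -1.04 (SE 0.19, limma adjusted p = 0.000408). The comparisons below were therefore tested without and with the replicate number as a block, and for *Esr1* and *Pgr* the values between treatments without replicate 1 are given as well. A gene passed when its limma adjusted p over all 13233 genes was under 0.05 and its fold change was above 1.2.

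*Esr1* was highest with E2, intermediate in vehicle and lowest in both fulvestrant groups. In vehicle, replicates 1, 2 and 3 held 515, 247 and 283 normalized counts, with a mean of 348 ± 146 (SD, n = 3). With E2 they held 646, 516 and 489 (550 ± 84.2, SD, n = 3). The vehicle and E2 ranges overlapped only through vehicle replicate 1, which nearly equaled E2 replicate 2. With E2 plus fulvestrant the replicates held 216, 87.1 and 76.4 normalized counts (126 ± 77.5, SD, n = 3). With fulvestrant alone they held 222, 101 and 76.2 (133 ± 77.8, SD, n = 3). Every fulvestrant-treated sample lay below every sample without it, and replicate 1 was the highest of its group in all 4 groups.

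*Pgr* was present at lower levels and spread over a wider range. In vehicle, replicates 1, 2 and 3 held 25.4, 85.3 and 104 normalized counts (71.7 ± 41.2, SD, n = 3). With E2 they held 145, 268 and 304 (239 ± 83.3, SD, n = 3). The lowest E2 sample was above the highest vehicle sample. With E2 plus fulvestrant the replicates held 14.8, 28.4 and 27.0 (23.4 ± 7.50, SD, n = 3). With fulvestrant alone they held 13.0, 21.5 and 16.2 (16.9 ± 4.27, SD, n = 3). Vehicle replicate 1 fell within the range of the E2 plus fulvestrant group, and replicate 1 was the lowest of its group in all 4 groups, the reverse of its place for *Esr1*. The fulvestrant-treated samples rested on few reads of *Pgr*, from 10 to 31 per sample. The 10 reads in fulvestrant replicate 3 have an exact Poisson 95% interval of 4.80 to 18.4 reads, which covers counting error only. Because a gene with fewer reads in any sample would have been left out of the table, *Pgr* was listed at the limit of that filter.

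**Figure D1:**
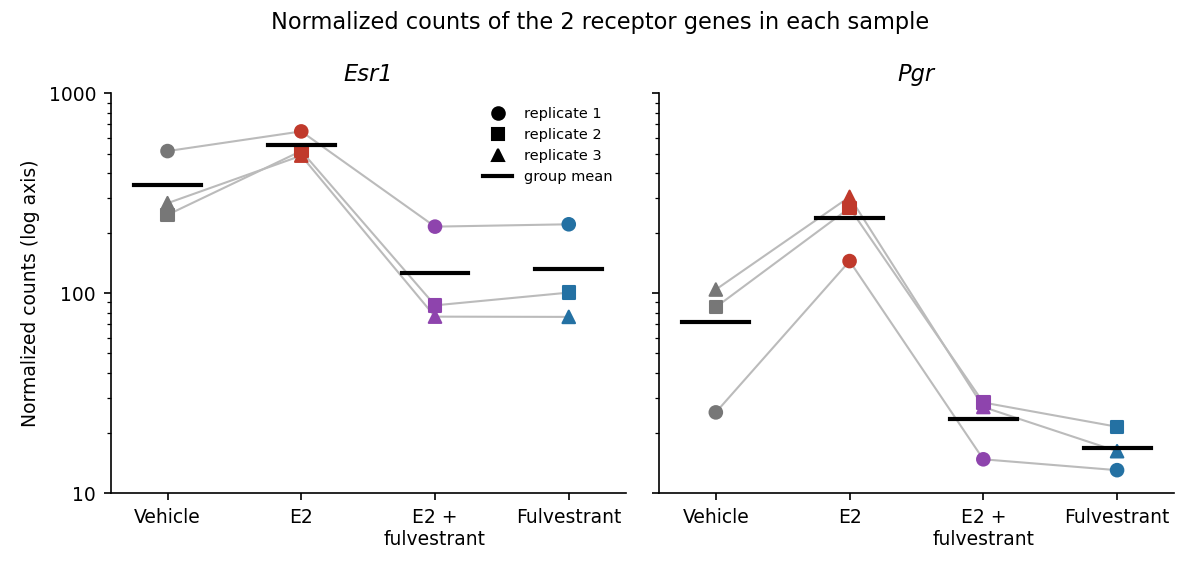
Normalized counts (log axis) of Esr1 and Pgr in each of the 12 samples by treatment group, with gray lines joining samples of the same replicate number and black bars at the group means. All 6 fulvestrant-treated samples lie below the other 6 for Esr1, and replicate 1 is the highest sample of each group for Esr1 and the lowest for Pgr.

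E2 alone was compared with vehicle to ask whether the ligand raised transcripts of its own receptor and of the progesterone receptor. *Pgr* was 3.68-fold higher, a log2 fold change of 1.88 (SE 0.27 with the block), which was the largest change in either direction of the 13233 genes. It was higher in 3 of 3 replicates, by 2.47, 1.64 and 1.53 on the log2 scale in replicates 1, 2 and 3. It passed with the block (limma adjusted p = 0.0343) but not without it (limma adjusted p = 1, SE 0.51). With the block it still passed without vehicle replicate 3, fulvestrant replicate 1 or fulvestrant replicate 3, and it did not pass without any 1 of the other 9 samples (limma adjusted p = 0.0511 to 0.283). *Esr1* was 1.65-fold higher, a log2 fold change of 0.72 (SE 0.20 with the block), and did not pass with the block (limma adjusted p = 0.388) or without it (limma adjusted p = 1). Its differences were 0.33, 1.06 and 0.79 in replicates 1, 2 and 3. Few genes passed in this comparison, 0.00756% without the block and 0.0756% with it. Without replicate 1, the log2 fold change of *Pgr* was 1.59 (limma adjusted p = 0.00848) and that of *Esr1* was 0.92 (limma adjusted p = 0.0324), so both passed. Replicate 1 had the smallest *Esr1* difference, and the share of all genes that passed without it was not counted. The block and the omission of replicate 1 together left *Esr1* at a limma adjusted p of 0.0509. With the block, *Pgr* did not pass when replicate number 2 or 3 was left out.

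Fulvestrant alone was compared with vehicle, in medium to which no E2 had been added. *Pgr* fell by 1.82 on the log2 scale (SE 0.27), 3.53-fold lower than in vehicle, and passed with the block (limma adjusted p = 0.00148). *Esr1* fell by 1.46 (SE 0.20), 2.75-fold lower, and passed with the block (limma adjusted p = 0.000993). Neither passed without the block, at limma adjusted p = 0.237 for *Pgr* and 0.363 for *Esr1*. Of all genes, 0.544% passed in the unblocked fit. The blocked fit passed 12.5% of all genes, comprising 6.76% higher and 5.69% lower with fulvestrant. The *Pgr* differences were -0.91, -1.94 and -2.61 and the *Esr1* differences were -1.21, -1.28 and -1.88 in replicates 1, 2 and 3. The groups did not overlap for either gene. The share of all genes whose groups did not overlap was not counted for this or the other comparisons. With the block, *Pgr* did not pass when replicate number 2 or 3 was left out of every group (limma adjusted p = 0.0545 and 0.0613). Without replicate 1 the log2 fold changes were -2.28 for *Pgr* (limma adjusted p = 4.05e-05) and -1.58 for *Esr1* (limma adjusted p = 5.77e-05).

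E2 plus fulvestrant was compared with the same 3 vehicle samples, so its values are not independent of the previous 2 comparisons. *Esr1* was lower by a log2 fold change of -1.54 (SE 0.20) and passed with the block (limma adjusted p = 0.000669) but not without it (limma adjusted p = 0.295). *Pgr* was lower by -1.40 (SE 0.27) and also passed only with the block (limma adjusted p = 0.00574, against 0.445 without it). The share of all genes that passed was 0.453% in the unblocked fit and 12.7% in the blocked fit. The *Esr1* groups did not overlap, and the *Pgr* groups overlapped through vehicle replicate 1. With the block, *Pgr* did not pass when replicate number 2 or 3 was left out (limma adjusted p = 0.101 and 0.0917). Without replicate 1 the log2 fold changes were -1.68 for *Esr1* (limma adjusted p = 4.44e-05) and -1.73 for *Pgr* (limma adjusted p = 0.000305).

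E2 was compared with E2 plus fulvestrant to contrast an active with a blocked receptor in the presence of the ligand. Both genes had among the largest fold changes in the table. *Pgr* was 9.73-fold higher with E2, a log2 fold change of 3.28 that was second in absolute size of 13233 genes. It passed without the block (SE 0.51, limma adjusted p = 0.0271) and with it (SE 0.27, limma adjusted p = 4.69e-05). *Esr1* was 4.80-fold higher, a log2 fold change of 2.26 that ranked 7 in absolute size. It passed with the block (SE 0.20, limma adjusted p = 8.23e-05) but not without it (SE 0.48, limma adjusted p = 0.0925). Of all genes, 0.521% passed in the unblocked fit. The blocked fit passed 9.60%, comprising 4.62% higher and 4.97% lower with E2. The *Pgr* differences were close to each other, at 3.21, 3.19 and 3.45 in replicates 1, 2 and 3. The *Esr1* difference was smaller in replicate 1, at 1.58, than in replicates 2 and 3, at 2.55 and 2.66. With only these 2 groups in the fit and no block, *Pgr* did not pass (limma adjusted p = 0.0941). It also did not pass without the block when E2 replicate 2 or 3, any 1 of the E2 plus fulvestrant samples or fulvestrant replicate 3 was left out (limma adjusted p = 0.0545 to 0.129), and it passed with the block in each of these. Without replicate 1 the log2 fold changes were 3.32 for *Pgr* (limma adjusted p = 3.41e-06) and 2.61 for *Esr1* (limma adjusted p = 1.87e-06).

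E2 plus fulvestrant was compared with fulvestrant alone to ask whether E2 still acted once the receptor was blocked. Neither gene passed. *Pgr* differed by a log2 fold change of 0.42, with a 95% interval of -0.18 to 1.01 with the block, and *Esr1* by -0.08, with an interval of -0.53 to 0.36. *Pgr* was higher with E2 in 3 of 3 replicates, by 0.17, 0.39 and 0.70, within ranges that overlapped. Without replicate 1 the log2 fold changes were 0.54 for *Pgr* (limma adjusted p = 0.705) and -0.10 for *Esr1* (limma adjusted p = 0.922). In the fit without the block, the *Pgr* value was 0.26 without fulvestrant replicate 1 or E2 plus fulvestrant replicate 2 and 0.71 without E2 plus fulvestrant replicate 1. With the block it was 0.17 without fulvestrant replicate 3 and 0.67 without fulvestrant replicate 1. The *Esr1* value changed sign in both fits when certain single samples were left out. Across the table, 0% of genes passed in limma in either fit. At an unadjusted p under 0.05 there were 34 genes in the unblocked and 255 in the blocked fit. The upper bound for *Pgr*, 1.01, was below its log2 fold change of 1.88 in E2 against vehicle.

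**Figure D2:**
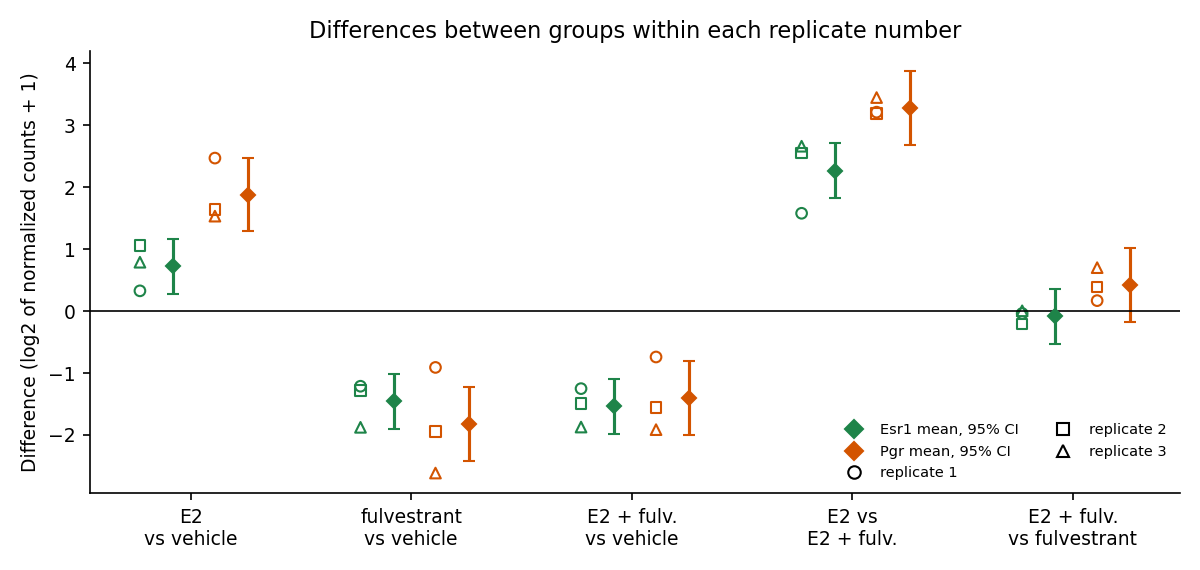
Differences between groups in log2 of normalized counts plus 1, by comparison, for Esr1 (green) and Pgr (orange). Open symbols are the differences within replicates 1, 2 and 3, and filled diamonds are the means with 95% intervals from the limma fit with the replicate number as a block. The intervals exclude 0 in 4 of the 5 comparisons for both genes and include it for E2 plus fulvestrant against fulvestrant.

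Whether the E2 difference itself depended on fulvestrant was tested as an interaction. The E2 difference was larger without fulvestrant than with it by 1.46 for *Pgr* (95% interval 0.62 to 2.30 with the block) and by 0.81 for *Esr1* (0.18 to 1.43). Neither passed over all genes (limma adjusted p = 0.944 with the block and 1 without it for both). Their unadjusted p-values in the limma fit with the block were 0.00288 for *Pgr* and 0.0166 for *Esr1*. Without replicate 1 the interaction was 1.04 for *Pgr* (limma adjusted p = 0.358) and 1.03 for *Esr1* (limma adjusted p = 0.236). In the fit without the block, the *Esr1* interaction was 0.36 without fulvestrant replicate 1, 0.53 without E2 plus fulvestrant replicate 3 and 1.27 without E2 plus fulvestrant replicate 1, and the *Pgr* interaction was 0.84 without vehicle replicate 1. Again 0% of genes passed in limma in either fit, and 67 genes without the block and 501 with it had an unadjusted p under 0.05. A dependence of the E2 difference on fulvestrant was thus not detectable after adjustment over all genes.

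Pooling the groups by agent, the 6 fulvestrant-treated samples were compared with the 6 others by an exact two-sided permutation test, and likewise for E2, with adjustment over the 4 tests. With fulvestrant, *Esr1* was lower by a mean log2 difference of -1.86 (exact permutation p = 0.00216, adjusted p = 0.00866), the smallest p that 924 arrangements allow. *Pgr* was lower by -2.55 (exact permutation p = 0.00649, adjusted p = 0.013). When only samples of the same replicate number were exchanged, both had an exact permutation p of 0.00926, the smallest possible there, and an adjusted p of 0.0185. With E2 pooled over both fulvestrant states, *Pgr* was higher by 1.15 (exact permutation p = 0.227, adjusted p = 0.303) and *Esr1* by 0.32 (exact permutation p = 0.673, adjusted p = 0.673), and neither passed. Samples were exchanged across fulvestrant states, so the fulvestrant difference widened the spread that the E2 differences were set against. The pooled E2 tests therefore cannot decide whether E2 had an effect.

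Treatment accounted for most of the variation of both genes, unlike the typical gene in the table. In the log2 values of *Pgr*, 87.1% of the sum of squares lay between treatments, 10.1% between replicate numbers and 2.80% in the remainder. For *Esr1* these shares were 77.3%, 19.0% and 3.70%. The medians over all genes were 17.9%, 57.7% and 16.6%.

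Levels of the 2 receptors were compared as normalized counts per kilobase of merged exon, because *Esr1* transcripts cover more exonic sequence. *Esr1* was above *Pgr* in 12 of 12 samples, but by very different amounts. In E2 replicate 3 the levels were nearly equal, at 35.8 for *Esr1* and 35.6 for *Pgr* per kilobase. In vehicle replicate 1 *Esr1* was 12.7 times *Pgr*, at 37.7 and 2.97 per kilobase. Within replicate 1 the *Pgr* to *Esr1* ratio was 0.0787 in vehicle, 0.359 in E2, 0.109 in E2 plus fulvestrant and 0.0940 in fulvestrant. In replicates 2 and 3 the vehicle ratios were 0.552 and 0.591 and the E2 ratios were 0.829 and 0.994. The ratios there were 0.522 and 0.564 in E2 plus fulvestrant and 0.341 and 0.340 in fulvestrant. These lay below vehicle of the same replicate number, whereas in replicate 1 both fulvestrant groups lay above it. The ratio was highest with E2 in each of the 3 replicate numbers. Both genes were low in the table as a whole. *Esr1* was at or above 17.6% of 13149 genes in E2 replicate 1 and 1.70% in fulvestrant replicate 3, whereas *Pgr* was at or above 14.8% in E2 replicate 3 and 0.0989% in E2 plus fulvestrant replicate 1.

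**Figure D3:**
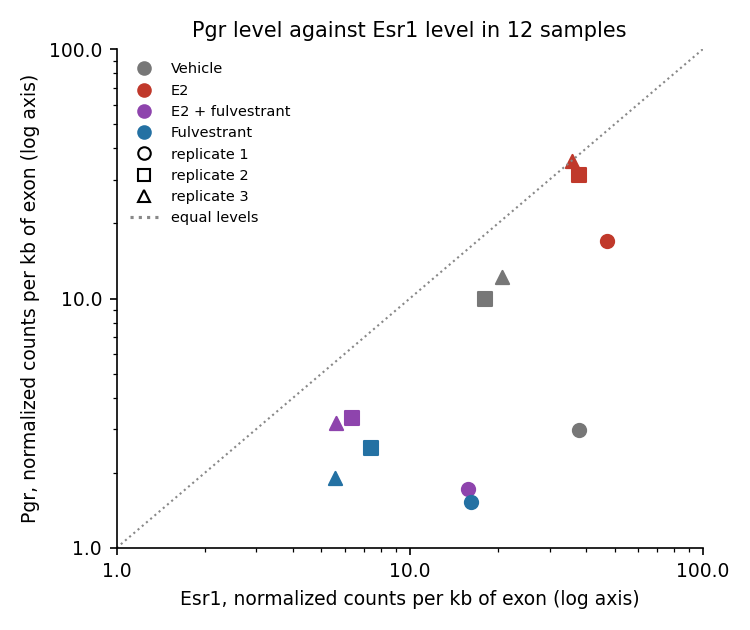
Pgr level against Esr1 level, both in normalized counts per kilobase of exon on log axes, for the 12 samples colored by group and shaped by replicate number, with a dotted line of equal levels. All samples lie on or below the line, and the 4 replicate-1 samples lie farther below it than the others of their group.

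The other steroid hormone receptors and estrogen-related receptors placed these levels in context. Of 9 listed genes, 5 were in the table, and *Esr2*, *Gper1*, *Esrrb* and *Esrrg* were not analyzed here. *Nr3c1*, the glucocorticoid receptor, had the highest mean level, at 1288 ± 253 per kilobase in vehicle (SD, n = 3). *Esrra*, an orphan receptor linked to mitochondrial metabolism, was at 120 ± 13.2, against 25.5 ± 10.7 for *Esr1* and 8.39 ± 4.83 for *Pgr*. *Nr3c2*, the mineralocorticoid receptor, was at 61.7 per kilobase in vehicle replicate 1 and at 6.72 and 7.45 in replicates 2 and 3, so its order relative to *Esr1* differed between replicates. In vehicle the ranges of *Nr3c1*, *Esrra*, *Esr1* and *Pgr* did not overlap with their neighbors in this order, and that of *Nr3c2* overlapped both *Esr1* and *Pgr*.

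In E2 against E2 plus fulvestrant, 3 of the 5 receptors passed with the block, all higher with E2, beside 4.62% of all genes. They were *Pgr*, *Esr1* and *Nr3c1*, and the median log2 fold change of the 5 was 0.44, beside -0.01 for all genes. *Nr3c1* held 9808 ± 1997 normalized counts with E2 and 7511 ± 220 in the combined treatment (SD, n = 3 each), a log2 fold change of 0.37 (SE 0.09, limma adjusted p = 0.0293 with the block). Without the block *Nr3c1* did not pass (limma adjusted p = 0.641). *Nr3c2* and *Esrra* did not pass, at log2 fold changes of 0.44 and 0.16. In fulvestrant against vehicle the same 3 genes passed with the block, all lower, beside 5.69% of all genes. The log2 fold change of *Nr3c1* there was -0.36. In E2 against vehicle, *Pgr* was the 1 receptor of 5 that passed with the block, beside 0.0756% of all genes. Without the block, *Pgr* was the 1 receptor that passed in E2 against E2 plus fulvestrant, and 0 passed in limma against vehicle, where *Pgr*, *Esr1* and *Nr3c1* had an unadjusted p under 0.05 in both fulvestrant groups and *Pgr* in E2.

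**Figure D4:**
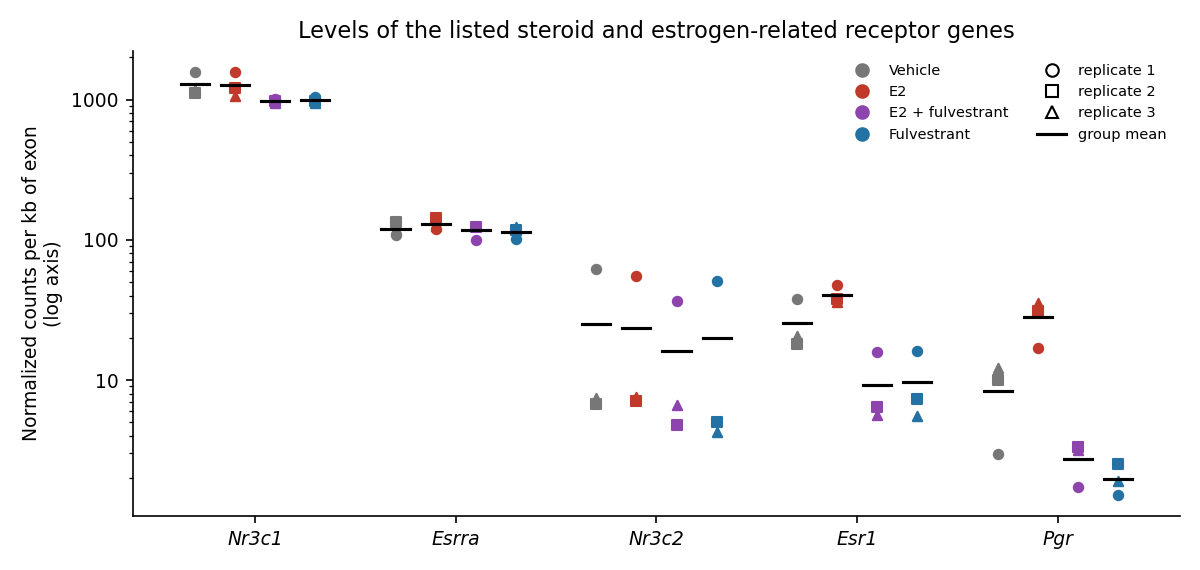
Normalized counts per kilobase of exon (log axis) of the 5 listed steroid and estrogen-related receptor genes, with points for the 12 samples by group and replicate number and black bars at the group means. Nr3c1 lies above the others, and the fulvestrant groups are separated from vehicle and E2 for Esr1 and, narrowly, for Nr3c1.

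Of 8 listed genes for proteins that bind progesterone at membranes, 5 were in the table. With E2 against E2 plus fulvestrant, 1 of 5 passed higher with the block, beside 4.62% of all genes, and the median log2 fold change was 0.14, beside -0.01 for all genes. It was *Paqr8*, a membrane progestin receptor, at 214 ± 60.7 normalized counts with E2 and 155 ± 27.5 with E2 plus fulvestrant (SD, n = 3 each, log2 fold change 0.44, SE 0.12, limma adjusted p = 0.0333 with the block). Without the block *Paqr8* did not pass (limma adjusted p = 0.911). *Pgrmc1*, *Pgrmc2*, *Nenf* and *Paqr7* did not pass, with log2 fold changes of 0.06 to 0.19. In fulvestrant against vehicle 0 of 5 passed in limma in either fit, and at an unadjusted p under 0.05 there were 0 in the unblocked fit and 1 (*Paqr8*) in the blocked fit.

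Among transcription factors that work with estrogen receptor alpha at chromatin, 6 of 10 listed genes were in the table, and *Foxa1*, *Gata3*, *Tfap2a* and *Tfap2c* were not analyzed here. *Jun*, a subunit of AP-1, was the 1 of 6 that passed with the block, lower with E2, beside 4.97% of all genes, at 4708 ± 2666 with E2 and 7389 ± 2660 in the combined treatment, or -0.81 on the log2 scale (SD, n = 3 each, SE 0.20, limma adjusted p = 0.0265 with the block). Without the block *Jun* did not pass (limma adjusted p = 0.995). The other 5 genes did not pass in either fit, and the median of the 6 was -0.08, beside -0.01 for all genes. In fulvestrant against vehicle *Jun* was again the 1 gene that passed with the block, higher at 0.93, beside 6.76% of all genes, and it did not pass without the block (limma adjusted p = 0.948).

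Genes known to be induced by estrogen in other tissues divided between directions. Of 19 listed, 12 were in the table, and *Greb1*, *Tff1* and *Ltf* were among the 7 not analyzed here. In E2 against E2 plus fulvestrant, 4 of 12 passed higher and 1 passed lower with the block, beside 4.62% and 4.97% of all genes, and the median log2 fold change was -0.01, the same as for all genes. *Igf1*, a growth factor, held 2847 ± 59.6 normalized counts with E2 and 1661 ± 13.6 with E2 plus fulvestrant (SD, n = 3 each). Its log2 fold change of 0.78 passed without the block (SE 0.06, limma adjusted p = 0.000619). *Igfbp4*, which binds insulin-like growth factors, was 5705 ± 2913 and 2859 ± 1313, with a log2 fold change of 0.97 (SE 0.10, limma adjusted p = 0.000158 with the block). *Rerg*, a RAS-like growth inhibitor, was 1578 ± 32.3 and 937 ± 82.4, with a log2 fold change of 0.76 (SE 0.12, limma adjusted p = 0.00291 with the block). The chemokine gene *Cxcl12* passed at 0.32 with the block. *Myc* passed with the block in the opposite direction at -0.53. Without the block *Igf1* was the 1 gene of the 12 that passed, with *Igfbp4* at a limma adjusted p of 0.858 and *Rerg* at 0.0514. In fulvestrant against vehicle, 4 of 12 passed lower and 3 passed higher with the block, beside 5.69% and 6.76% of all genes. The 3 higher genes were *Siah2*, *Ccnd1* and *Myc*. Without the block *Igf1*, at -0.59, was the 1 gene that passed there. In E2 against vehicle 0 of the 12 passed in limma in either fit, and at an unadjusted p under 0.05 there was 1 gene in the unblocked fit and 4 in the blocked fit.

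Of the genes known to be induced by the progesterone receptor, more passed against the direction of *Pgr* than with it under fulvestrant. Of 19 listed, 12 were in the table. In E2 against E2 plus fulvestrant, 1 of 12 passed higher and 6 passed lower with the block, beside 4.62% and 4.97% of all genes, and the median log2 fold change was -0.54. The gene that was higher was *Hoxa10*, a uterine homeobox gene, at 0.34. The 6 that were lower were *Fkbp5*, *Tsc22d3*, *Sgk1*, *Per1*, *Cebpb* and *Klf9*, which are also known as targets of the glucocorticoid receptor. No progestin was named among the treatments. Whether the progesterone or the glucocorticoid receptor had a part in these changes was not tested. *Fkbp5*, a chaperone of steroid receptors, was 749 ± 333 with E2 and 6300 ± 3060 in the combined treatment, or -3.09 on the log2 scale (SE 0.55, limma adjusted p = 0.00507 with the block). *Tsc22d3* was 1882 ± 925 and 4210 ± 3810, with a log2 fold change of -0.90 (SE 0.21, limma adjusted p = 0.0204 with the block). *Sgk1*, a kinase, was 1900 ± 578 and 3408 ± 1082, with a log2 fold change of -0.84 (SE 0.12, limma adjusted p = 0.00115 with the block). In fulvestrant against vehicle, the same 6 genes were higher and *Hoxa10* was lower with the block, beside 6.76% of all genes higher and 5.69% lower. Without the block, *Per1*, a circadian clock gene, was the 1 member that passed, at -0.78 in E2 against E2 plus fulvestrant and 0.75 in fulvestrant against vehicle. In E2 against vehicle, where *Pgr* was higher, 0 of the 12 passed in limma in either fit, at a median log2 fold change of 0.03. At an unadjusted p under 0.05 there were 0 of the 12 in either fit.

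All 14 listed chaperones and cochaperones of steroid receptors were in the table. In E2 against E2 plus fulvestrant, 0 of 14 passed higher and 2 passed lower with the block, beside 4.62% and 4.97% of all genes, with a median log2 fold change of -0.15, beside -0.01 for all genes. They were *Fkbp5* and *Hsp90aa1*, the stress-inducible HSP90, which was at -0.43 (SE 0.09, limma adjusted p = 0.00892 with the block). Without the block 0 of 14 passed in limma in that comparison or in fulvestrant against vehicle, and in each *Fkbp5* was the 1 gene with an unadjusted p under 0.05. In fulvestrant against vehicle 4 of 14 passed higher with the block, beside 6.76% of all genes, which were *Fkbp5*, *Hsp90aa1*, *Stip1* and *Hspa4*. *Stip1*, which joins HSP70 to HSP90, was higher by 0.27 in that comparison (SE 0.06, limma adjusted p = 0.0157 with the block) and did not pass in E2 against E2 plus fulvestrant, at -0.21. The constitutive HSP90 gene *Hsp90ab1* was at -0.03 in the latter comparison and did not pass.

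**Figure D5:**
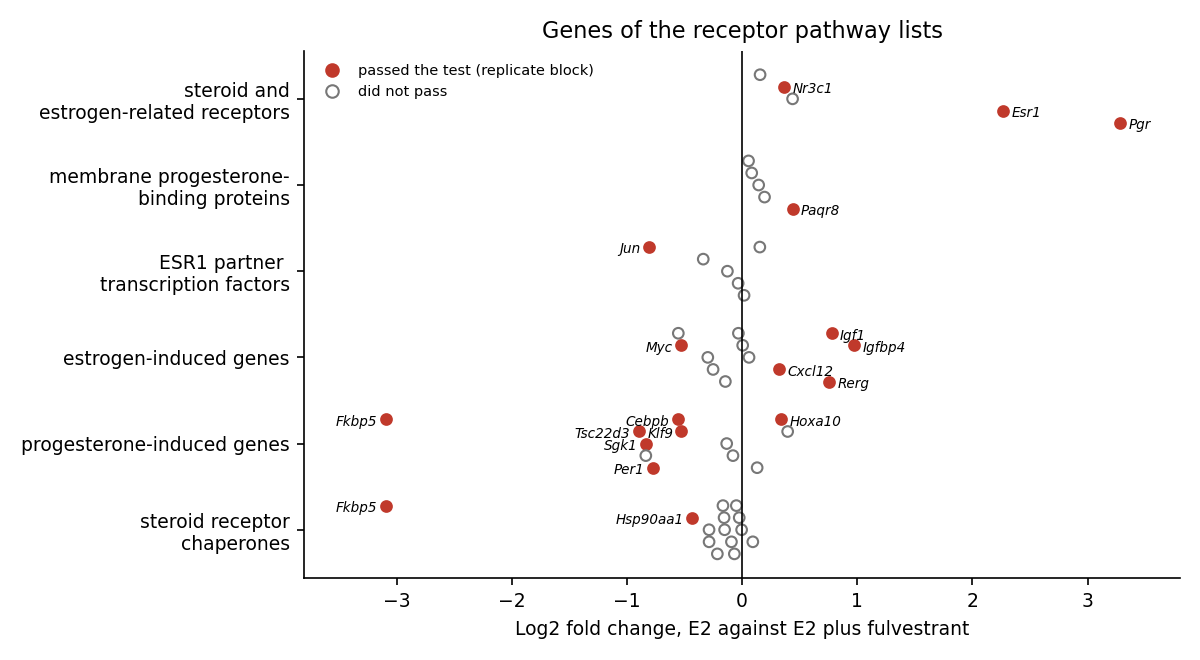
Log2 fold changes in E2 against E2 plus fulvestrant of the genes in 6 lists related to the receptors, with Fkbp5 in 2 of them. Filled points passed the limma test with the replicate number as a block and are named, open points did not, and Pgr at 3.28 and Esr1 at 2.26 lie farthest to the right.

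The genes whose profiles were most like those of the receptors were found by the Pearson correlation of log2 values over the 12 samples, after each replicate number was centered on its own mean. These samples share libraries and treatments, so the correlations are descriptive. For *Esr1* the 5 closest were *Epha3*, *Igf1*, *Ptchd1*, *Olfml2b* and *Ggcx*, each at r = 0.98. *Epha3*, an ephrin receptor, averaged 1534 normalized counts in vehicle, 1931 in E2, 834 in E2 plus fulvestrant and 835 in fulvestrant. *Ptchd1*, a patched-domain membrane protein, averaged 1509, 1862, 841 and 811 in the same order. For *Pgr* the 5 closest were *Rybp* at r = 0.98 and *Csrp2*, *Lrrc17*, *Samd5* and *Fstl1* at 0.97. *Csrp2*, a LIM-domain protein, averaged 234 in vehicle, 447 in E2, 155 in E2 plus fulvestrant and 124 in fulvestrant. Its log2 fold change in E2 against vehicle was 0.93 (SE 0.10) and passed with the block (limma adjusted p = 0.00593) but not without it (limma adjusted p = 0.0966), as for *Pgr*. *Lrrc17*, a leucine-rich repeat protein, averaged 1208, 1792, 712 and 666. The receptors themselves correlated with each other at r = 0.95, which placed *Pgr* 61st in the order for *Esr1* and *Esr1* 23rd in the order for *Pgr*.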

How the data were processed

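RNA was sequenced from 12 cultures, 3 in each of 4 groups given by the labels. The submitters' processing notes name Trimmomatic 0.39, STAR 2.5.2, HTSeq 0.13.5 and DESeq2 1.37 on the mm10 build. The values deposited by the authors are a signal: gene counts divided by size factors (normalized counts) after counts under 10 were removed. They were read as 100.0% whole multiples of 1 step per sample within a tolerance of 0.01, which gave the reads quoted. The study's methods name tools that reduce batch effects, and whether the deposited values carry that step is not given in the sources used here.

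From these values, log2(value + 1) was fitted with limma 3.58.1 (R 4.3.3) over all 12 samples with a variance trend, no low-value filter and Benjamini-Hochberg adjustment over 13233 genes. Fold changes are on that scale and understate changes of low genes. Deviations from the group mean were shared by samples of the same number (correlations of 0.63 to 0.92 over 18 pairs, mean 0.76), so the fit with the replicate number as a block is given beside the fit without it. Exact permutation tests and motif counts used Python 3.11.15, and levels per kilobase used merged exons of GENCODE on GRCm38 for 13149 genes. Fitting was tested on simulated data.

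The members, lists and tests were chosen with earlier results of these data known. Some genes of the receptor and partner lists are not reported here and were left out of the list counts. Named were every other receptor in the list, the 3 members of each other list with the largest absolute log2 fold change in E2 against E2 plus fulvestrant among those passing there or in fulvestrant against vehicle, and the 5 genes most correlated with each receptor. Other genes named in the list paragraphs were chosen after their values were seen. The alternatives were other pseudocounts, filters, scalings, sample sets and leave-outs.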

Additional observations from a re-analysis of the deposited data

How the results depend on the processing

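Over 28 results and 490 alternatives, 442 values kept direction and side of the threshold, 19 passed where the fit without the block had not, 24 no longer passed and 5 reversed. With the replicate block, and with the replicate block in only the 2 groups compared, the values without the block stayed and now passed: *Esr1* at -1.46 (fulvestrant against vehicle), -1.54 (E2 plus fulvestrant against vehicle) and 2.26 (E2 against E2 plus fulvestrant), and *Pgr* at 1.88 (E2 against vehicle), -1.82 and -1.40. In only the 2 groups compared without the block, *Pgr* in E2 against E2 plus fulvestrant no longer passed at 3.28. The 5 reversals were in *Esr1*, E2 plus fulvestrant against fulvestrant, which did not pass in any fit: 0.10, 0.20 and 0.36 without E2 plus fulvestrant replicate 2, E2 plus fulvestrant replicate 3 or fulvestrant replicate 1, and 0.0259 and 0.0594 with the block without the latter pair of samples.

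Leaving out samples without the block, *Esr1* ran from 0.52 to 1.04 in E2 against vehicle, -1.90 to -1.14 in fulvestrant against vehicle, -2.00 to -1.22 in E2 plus fulvestrant against vehicle, 1.99 to 2.73 in E2 against E2 plus fulvestrant and -0.55 to 0.36 in E2 plus fulvestrant against fulvestrant. *Pgr* ran from 1.26 to 2.26, -2.44 to -1.42, -2.02 to -1.02, 2.99 to 3.61 and 0.26 to 0.71 in the same order. *Pgr* in E2 against E2 plus fulvestrant did not pass without E2 replicate 2 or 3, any 1 E2 plus fulvestrant sample, fulvestrant replicate 3, or replicate number 2 or 3. The block was planned, and leaving out samples with the block was chosen after seeing the data. With it, *Pgr* ran from 1.52 to 2.16 in E2 against vehicle and passed only without vehicle replicate 3, fulvestrant replicate 1 or 3, or replicate number 1 (limma adjusted p up to 0.981 otherwise). With the block, *Pgr* ran from -2.28 to -1.42 in fulvestrant against vehicle and -1.76 to -1.13 in E2 plus fulvestrant against vehicle, and did not pass there without replicate number 2 or 3. *Esr1* with the block ran from -0.25 to 0.06 in E2 plus fulvestrant against fulvestrant, and *Pgr* from 0.17 to 0.67. The interaction ran from 0.36 to 1.27 for *Esr1* and 0.84 to 1.84 for *Pgr* without the block, from 0.57 to 1.09 and 1.04 to 1.78 with it, and did not pass in any of these. The other calls of *Esr1* and *Pgr* with the block stayed in each of these. No sample was left out for the listed genes.

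Count tests (edgeR, DESeq2) and TMM scaling were planned and not run: reads were recovered from the deposited values, but no value stands for fewer than 10 reads, and they were not accepted as counts for such tests. *Pgr* gave no value under the filter at a mean of 100. Scalings moved the median of all genes by less than 0.05 on the log2 scale. Depth limits *Pgr* under fulvestrant, at 10 to 31 reads a sample.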
